A study of Bos taurus with 60 samples.

Results

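Solute carriers are a large group of membrane transport proteins. The 70 loci described here are the solute carrier (SLC) loci of the bovine mammary gland that met a rule of 3 parts. Their symbol began with SLC and a digit in the tables of differentially expressed genes that pair a locus with a symbol. The glucose transporter SLC2A1 and the amino acid transporters SLC7A5 and SLC7A8 were set aside, and the locus had 1 CPM or more in 6 or more samples (CPM are counts scaled to the size of each library). All 70 loci passed the last part, and they are among 14714 loci tested, of 25223 loci counted. The members belong to 29 subfamilies, of which SLC25 (12 loci), SLC30 (6), SLC38 (6) and SLC39 (5) hold the most. One locus joins SLC25A23 and SLC25A41, so the 70 loci carry 71 symbols.

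The samples were mammary gland biopsies of 12 multiparous Holstein cows in late gestation, taken 3 days before dry-off (D-3) and 3, 7, 14 and 25 days after it (D3, D7, D14 and D25). After dry-off 6 cows were cooled (CL) and 6 were heat-stressed (HT), and neither treatment had begun at D-3. Each cow gave 1 sample at each time point, and the cow is the replicate. All cows were pregnant, and whole tissue was sequenced, so a biopsy holds every cell type of the gland.

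The members were chosen by measured values. The parts of the symbol tables held here list the loci with the smallest p for D3 vs. D-3 and for D7 vs. D3, with a few for D14 vs. D7. Of the members, 37 entered by D3 vs. D-3 only, 21 by D7 vs. D3 only, 10 by both and 2 by D14 vs. D7. Values of those contrasts are therefore given as a description, and so are those of D25 vs. D-3, which uses the same D-3 samples. The contrast D25 vs. D14, the contrast of HT with CL and the interaction of treatment with time were not used by the rule. Every member passed the filter on low values. The member nearest to its limit was SLC6A15, with 6 samples at or above 1 CPM, followed by SLC5A10 with 18, and 56 members were at or above 1 CPM in all samples.

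In the lactating gland, secretory epithelial cells take up amino acids, glucose, phosphate, vitamins and trace metals from blood and pass some of them into milk. Carriers of the SLC1, SLC6, SLC7 and SLC38 subfamilies move amino acids, SLC25 carriers sit mostly in the inner mitochondrial membrane, and SLC35 carriers bring nucleotide sugars into the Golgi. SLC30 proteins (ZnT) move zinc out of the cytosol, into vesicles or out of the cell, whereas SLC39 proteins (ZIP) move zinc into the cytosol. When milking stops at dry-off, milk synthesis ceases and the gland enters involution, and it redevelops before the next calving.

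Total counts per sample ranged from 20525083 to 26183990, and CPM are given after scaling by trimmed mean of M-values (TMM). The secretory cell markers CSN1S1, CSN2 and LALBA, which encode milk proteins, together held 0.191% to 49.8% of all counts at D-3, with a gap between the sixth highest cow at 8.03% and the fifth highest at 40.2%. The cows above the gap were 7965, 8564 and 8647 (CL) and 8541 and 8713 (HT). At D-3 the TMM factors reached down to 0.2996, against 0.798 on the later days, and a low factor raises the scaled CPM. At D3 the median milk protein share was 0.812% of counts. The D14 library of cow 7965 stood apart from the other 11 D14 libraries, with 3.36 CPM of the luminal keratin KRT19 against 231 to 1643 CPM and with 5396 CPM of the fibroblast gene DCN against 561 to 1559 CPM. In that library 37 of the 70 members (52.9%) were outside the range of the other D14 libraries, against 47.7% of all loci tested. The D14 and D25 libraries of the HT cows 8513 and 8660 each resembled the other cow's earlier libraries more than their own (mean correlation of deviations from the group mean of 0.37 and 0.51 across the cows, against -0.10 and 0.12 within them). Whether the labels were exchanged was not tested. Since both are HT cows, an exchange would leave each mean of a time point and each contrast of HT with CL within a time point with all cows as it is. But it would alter the fits with the cow as a block and those that leave out 1 of these cows. An exchange at D14 and D25 would also alter the differences within these cows in D14 vs. D7 and D25 vs. D-3. The numbers of cows given as higher or lower in those contrasts rest on the labels as they are. No marker fixed for leukocytes or erythroid cells could be paired with a locus.

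At D3 relative to D-3, most members with a difference were lower. With edgeR's quasi-likelihood F-test and a false discovery rate (FDR) of at most 0.05, 35 of the 70 members were lower at D3 and 12 were higher. Of all loci tested, 9.04% were called lower and 6.03% higher. Since the rule drew on this contrast, the counts describe how the members were selected. The median log2 fold change of the members was -0.51, against -0.01 over all loci. Of the 35 members called lower, 25 were also called lower at D25 relative to D-3. None of the 12 called higher was called higher at D25, with TMM scaling in both cases. Both contrasts use the same D-3 samples, and the shares of these overlaps over all loci are not given. These overlaps are therefore a description. Scaled by library size only, the median log2 fold change of all loci was 0.35, and 17 members were called higher and 9 lower. In that setting 2391 of all 14714 loci were called either way. Under that scaling 10 of the 35 members called lower had a value above 0 (SLC9B2, SLC10A7, SLC25A17, SLC25A26, SLC30A5, SLC33A1, SLC35A2, SLC38A2, SLC38A10 and SLC39A9), and all 47 called members kept their sign relative to the moved median. Of the 47 called members, 27 moved in the direction of the call in 10 or more of 12 cows and 14 in 9. The others were SLC1A5, SLC7A1, SLC9B2, SLC16A11 and SLC41A1 with 8 cows and SLC1A4 with 7. Fitted on the 24 samples of both days alone, 4 members were called higher and 21 lower, and 845 of all 14714 loci were called either way.

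**Figure D1:**
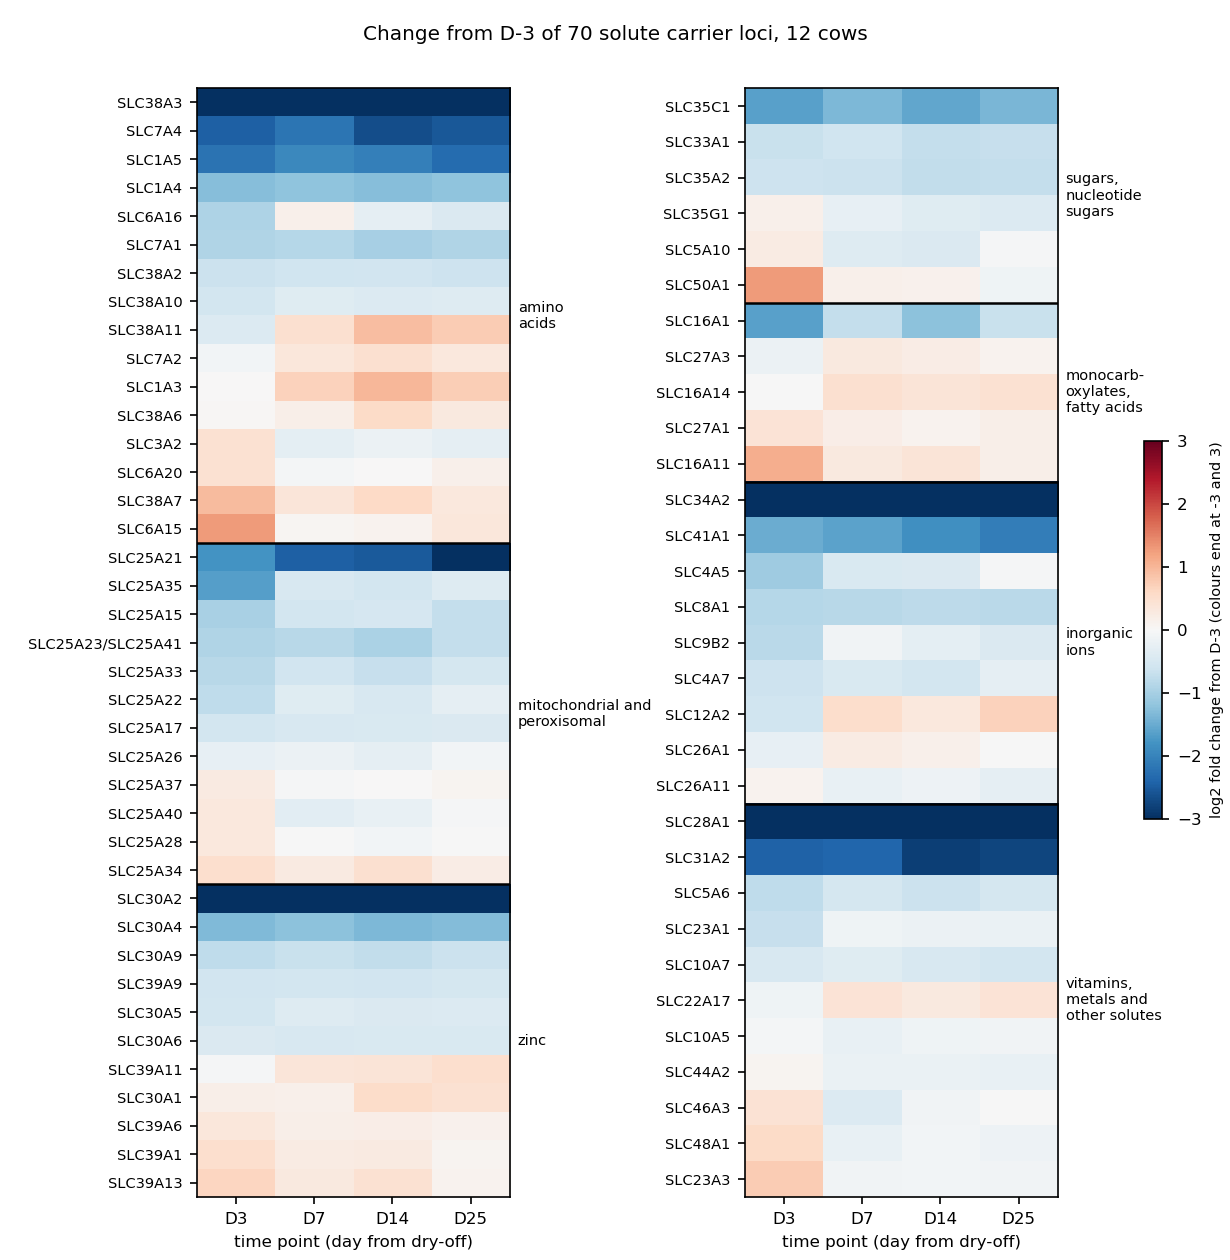
Log2 fold change from D-3 (colour, edgeR, 12 cows per time point) of each of the 70 solute carrier loci on each later time point, grouped by what they carry. Loci that were low at D3, such as SLC34A2, SLC30A2, SLC38A3 and SLC28A1, were still low at D25, while loci that were higher at D3, such as SLC50A1 and SLC23A3, were near their D-3 level from D7 on.

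The carriers that were lowest at D3 relative to D-3 came from different transport groups. SLC34A2, a sodium-dependent phosphate cotransporter, had a lowest, median and highest value of 14.2, 88.9 and 4332 CPM at D-3 and of 9.43, 27.1 and 58.0 CPM at D3. It had the lowest log2 fold change of all members, -5.23 ± 0.83 (SE). The fit has no term for the cow. Within cows the mean difference of SLC34A2 in log2 CPM was -2.858 (SD 3.083). At D-3 its values fell into 2 ranges, with 7 cows at 98.8 CPM or less and 5 cows at 1484 CPM or more. At D7 it had 4.69, 29.8 and 378 CPM, with a log2 fold change of 1.2 ± 0.71 relative to D3. The values at D25 lay between 7.03 and 46.4 CPM, below the D-3 values of those 5 cows.

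SLC30A2 (ZnT2), which loads zinc into secretory vesicles for milk, had a lowest, median and highest value of 0.537, 4.84 and 213 CPM at D-3 and of 0.0373, 0.506 and 10.5 CPM at D3. It was lower at D3 in 11 of 12 cows, with a log2 fold change of -4.21 ± 0.95 (SE). Within cows its mean difference in log2 CPM was -3.395 (SD 2.21). The fifth highest cow at D-3 had 80.8 CPM and the sixth 5.04 CPM. From D3 on its median stayed below 1 CPM at every time point, with single cows reaching 22.5 CPM at D7 and 9.78 CPM at D14.

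SLC38A3, which carries glutamine, histidine and asparagine with sodium, lay between 1.24 and 353 CPM at D-3 around a median of 17.8 CPM. At D3 it ranged from 0.781 to 21.8 CPM with a median of 3.34 CPM, a log2 fold change of -3.75 ± 0.78 (SE). SLC28A1, a sodium-dependent carrier of pyrimidine nucleosides, had 2.03, 8.53 and 191 CPM (lowest, median, highest) at D-3 and 0.583, 1.81 and 22.4 CPM at D3. It was lower at D3 in 11 of 12 cows (log2 fold change -3.34 ± 0.63 SE). Within cows the mean differences in log2 CPM were -2.365 (SD 2.504) for SLC38A3 and -2.558 (SD 2.083) for SLC28A1. For both carriers the ranges of the 2 time points overlapped, and the cows lowest at D-3 lay within the range of D3.

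SLC7A4, an orphan relative of the cationic amino acid transporters, had 38.8, 127 and 1140 CPM (lowest, median, highest) at D-3 and 30.1, 57.6 and 182 CPM at D3, a log2 fold change of -2.44 ± 0.47 (SE). SLC31A2, a relative of the copper importer SLC31A1, had 27.8, 101 and 1248 CPM at D-3 and 20.04, 40.8 and 169 CPM at D3 (-2.43 ± 0.49 SE). SLC1A5 (ASCT2), which exchanges neutral amino acids such as glutamine, had 12.8, 41.3 and 489 CPM at D-3 and 15.0, 26.7 and 48.5 CPM at D3 (-2.23 ± 0.37 SE). Within cows the mean differences in log2 CPM were -1.698 (SD 1.367) for SLC7A4, -1.654 (SD 1.537) for SLC31A2 and -1.36 (SD 1.757) for SLC1A5. In each of these carriers the 5 highest cows at D-3 were the 5 with a milk protein share above 40%.

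**Figure D2:**
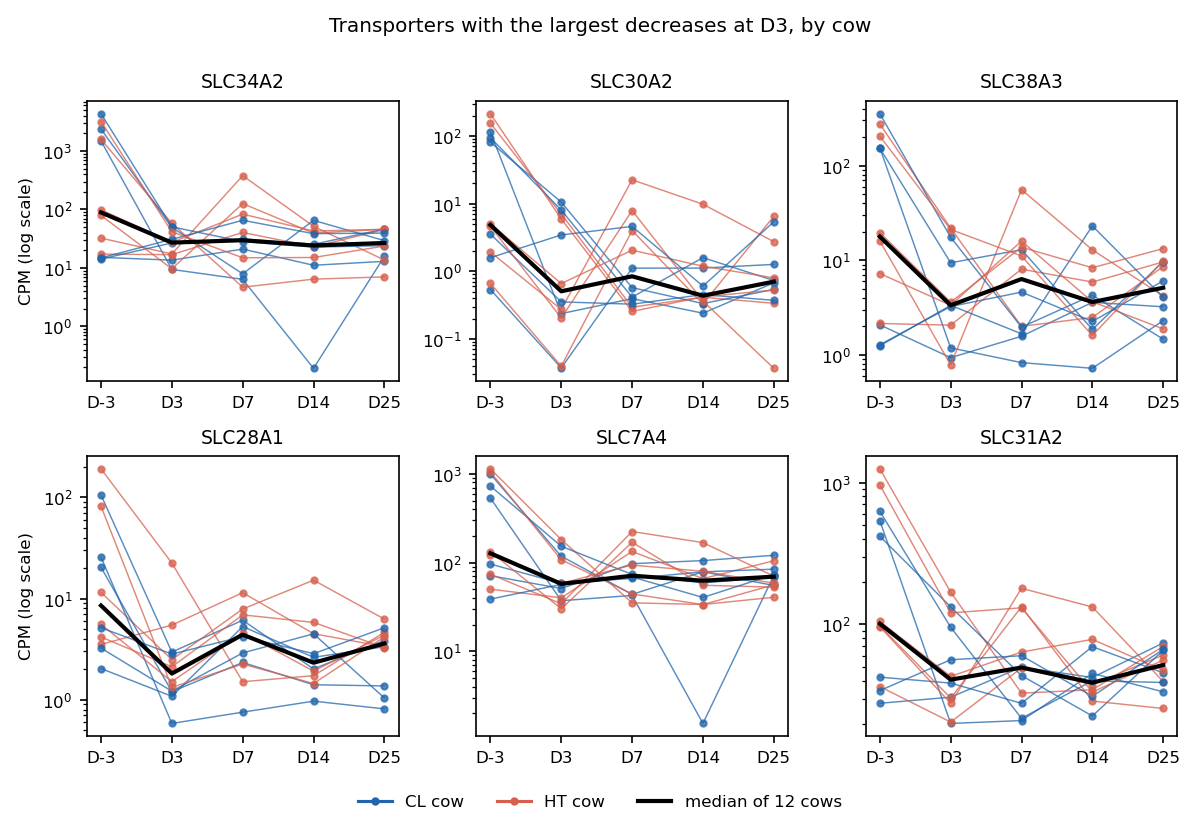
CPM on a log axis of the 6 carriers with the largest decreases at D3, for each of 12 cows (blue CL, red HT) at the 5 time points, with the median of 12 cows in black. At D-3 SLC34A2 spans 14.2 to 4332 CPM and SLC30A2 0.537 to 213 CPM, and from D3 on every median stays below that of D-3. The isolated low point of SLC34A2 (0.192 CPM) and SLC7A4 (1.54 CPM) at D14 is the library of cow 7965 that stood apart.

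The split between cows at D-3 was shared by many members. For 26 of the 70 members (37.1%) the 5 highest cows at D-3 were the 5 with the highest milk protein counts, against 10.5% of all loci tested. For 4 members (5.71%), SLC12A2, SLC22A17, SLC25A37 and SLC27A1, those cows were the 5 lowest, against 8.31% of all loci. Most members were chosen by D3 vs. D-3, which uses these D-3 values, so nothing is read from the difference between these shares. They describe 1 set of 12 biopsies, and the samples share depth and scaling. The spread between cows differed by time point. The median SD of log2 CPM over the members was highest at D-3 (0.645, against 0.466 over all loci) and lowest at D25 (0.341, against 0.319). In whole tissue, fewer cells of a type and less RNA per cell cannot be told apart, and the part of the milk protein share in the values at D3 was not tested.

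Amino acid carriers formed the most numerous group, with 16 members. At D3 relative to D-3, a contrast that the rule used, 7 were called lower and 1 higher, and 8 were not called. The shares over all loci were 9.04% lower and 6.03% higher. Beside SLC38A3, SLC7A4 and SLC1A5, SLC1A4 (ASCT1), a carrier of alanine, serine and cysteine, had a mean of 66.7 CPM at D-3 and 27.2 CPM at D3. Its log2 fold change was -1.29 ± 0.27 (SE), with 7 of 12 cows lower. Within cows its mean difference in log2 CPM was -0.77 (SD 1.435). SLC7A1 (CAT1), which takes up arginine and lysine, went from 149.9 to 80.4 CPM (-0.90 ± 0.19), with 8 of 12 cows lower. Its mean remained at 80.5 CPM at D25, when 7 of 12 cows were below their D-3 value. Scaled by library size only, SLC7A1 had log2 fold changes from D-3 of -0.08 at D3 and 0.07 at D25, neither called. The sodium-coupled carriers SLC38A2 (SNAT2) and SLC38A10 had log2 fold changes of -0.64 ± 0.15 and -0.55 ± 0.14, and of 0.06 and 0.05 when scaled by library size only. The mean of SLC38A10 was 168 CPM at D-3 and 115 CPM at D3. The mean of SLC38A2 was 378 CPM at D-3 and between 242 and 254 CPM at the other time points.

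SLC38A7 (SNAT7), which carries glutamine out of lysosomes, was the amino acid carrier called higher at D3. Its lowest, median and highest values were 31.3, 56.7 and 172 CPM at D-3, 68.5, 89.4 and 368 CPM at D3, and 46.5, 72.7 and 134 CPM at D7. It was higher at D3 in 11 of 12 cows (log2 fold change 0.96 ± 0.25 SE). SLC3A2, the heavy chain that brings SLC7A5 and SLC7A8 to the cell surface, had a mean of 183 CPM at D-3, 251 CPM at D3 and 149 CPM at D7. At D7 relative to D3 its log2 fold change was -0.75 ± 0.19 (SE), and 10 of 12 cows were lower at D7. Its light chain partners, set aside here, had log2 fold changes at D3 relative to D-3 of -2.54 (SLC7A5) and 2.28 (SLC7A8).

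The other amino acid carriers entered mostly by D7 vs. D3, and none of those described next was called in it. SLC6A16, an orphan member of the neurotransmitter transporter family, had 4.33, 17.0 and 60.4 CPM at D-3, 2.07, 9.21 and 29.9 CPM at D3 and 9.46, 25.8 and 45.9 CPM at D7 (lowest, median, highest). At D7 relative to D3 its log2 fold change was 1.08 ± 0.35 (SE), with 11 of 12 cows higher. SLC1A3, a glutamate and aspartate carrier, SLC7A2, a second carrier of cationic amino acids, and SLC38A11 had log2 fold changes of 0.69 ± 0.31, 0.42 ± 0.20 and 0.89 ± 0.35 at D7 relative to D3, from means at D3 of 6.55, 27.1 and 0.752 CPM. SLC6A20, a proline carrier, and SLC6A15, a carrier of branched-chain amino acids and proline, had log2 fold changes of -0.52 ± 0.19 and -1.22 ± 0.50 at D7 relative to D3. Their means at D3 were 2.40 and 0.714 CPM. SLC38A6 entered by D14 vs. D7 (0.40 ± 0.16), and its mean was 12.9 CPM at D7 and 17.1 CPM at D14. Its highest D14 value, 44.0 CPM, was that of cow 7965, whereas the other D14 libraries reached 19.7 CPM at most.

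The mitochondrial and peroxisomal carriers of subfamily SLC25 had 12 members, of which 8 were called lower and 3 higher at D3 relative to D-3. The rule used this contrast, and the shares over all loci were 9.04% lower and 6.03% higher. SLC25A35, an orphan mitochondrial carrier, had 6.89, 16.5 and 50.8 CPM (lowest, median, highest) at D-3, 2.02, 4.66 and 13.2 CPM at D3 and 6.59, 11.8 and 23.2 CPM at D7. Its log2 fold change was -1.66 ± 0.30 (SE) at D3 and 1.17 ± 0.30 at D7 relative to D3, so that its D3 median was below those of the days before and after. SLC25A21, the carrier of oxodicarboxylates from lysine breakdown, had means of 13.1 CPM at D-3, 3.72 CPM at D3 and 1.64 CPM at D25 (log2 fold change -1.80 ± 0.51 at D3).

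Carriers of the urea cycle, nucleotides and cofactors had smaller differences. At D3 relative to D-3 the log2 fold change was -0.96 ± 0.20 (SE) for SLC25A15, which carries ornithine (mean of 24.5 CPM at D-3 and 12.5 CPM at D3). It was -0.91 ± 0.17 for the locus of SLC25A23 and SLC25A41, both carriers of ATP-magnesium (49.1 and 26.1 CPM). SLC25A33, a pyrimidine nucleotide carrier (9.94 and 5.55 CPM), and SLC25A22, a glutamate carrier (42.9 and 25.4 CPM), had values of -0.83 ± 0.17 and -0.75 ± 0.18. SLC25A17, which brings cofactors into peroxisomes (47.5 and 32.6 CPM), and SLC25A26, the importer of S-adenosylmethionine into mitochondria (30.7 and 25.8 CPM), had values of -0.54 ± 0.13 and -0.25 ± 0.08, and of 0.08 and 0.17 when scaled by library size only.

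The iron importers of mitochondria had their highest means at D3 among D-3, D3 and D7. SLC25A37 (mitoferrin 1) had means of 153, 184 and 149 CPM at D-3, D3 and D7, with 11 of 12 cows higher at D3 than at D-3 and 10 lower at D7 than at D3. Its log2 fold changes were 0.27 ± 0.08 (SE) and -0.31 ± 0.08. SLC25A28 (mitoferrin 2) had means of 81.0, 101 and 79.8 CPM, with log2 fold changes of 0.31 ± 0.10, which was called, and of -0.34 ± 0.10 at D7, which was not. SLC25A40, a relative of the mitochondrial glutathione carrier, had 11.9 CPM at D3 and 7.75 CPM at D7 (-0.62 ± 0.17, 11 of 12 cows lower). SLC25A34, an orphan carrier whose locus also holds PLEKHM2, had 28.4, 52.1 and 94.1 CPM at D-3 (lowest, median, highest) and 44.3, 64.1 and 121 CPM at D3 (0.51 ± 0.17).

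Zinc transporters of the SLC30 and SLC39 subfamilies had 11 members. Of 6 SLC30 members, 4 were called lower and 0 higher, and of 5 SLC39 members, 3 were called higher and 1 lower. Scaled by library size only, SLC30A5, SLC30A6 and SLC39A9 had values above 0. In that setting SLC30A4 and SLC30A9 had -0.47 and -0.06, neither called, and SLC30A2 alone of the SLC30 members was called lower (-2.96). SLC39A1, SLC39A6 and SLC39A13 were still called higher in it. Of all loci, 9.04% were called lower and 6.03% higher. The median log2 fold change was -0.65 over the SLC30 members, of which SLC30A1 had a value above 0, and 0.34 over the SLC39 members, of which 3 had values above 0 and 2 below. The difference between the subfamilies was not tested, since the rule used this contrast. SLC30A4 (ZnT4), which like SLC30A2 moves zinc into vesicles, had 43.4, 84.0 and 372 CPM at D-3 (lowest, median, highest) and 27.7, 48.7 and 96.8 CPM at D3, with 11 of 12 cows lower and a log2 fold change of -1.33 ± 0.28 (SE). SLC30A9, a mitochondrial zinc transporter, had -0.75 ± 0.17 (mean of 90.1 CPM at D-3 and 53.5 CPM at D3). SLC30A5, which works with SLC30A6 in the early secretory pathway, had -0.55 ± 0.12 (123 and 83.6 CPM) and 0.04 when scaled by library size only. SLC30A6 was not called (-0.42 ± 0.15, 46.3 and 34.4 CPM, and 0.19 when scaled by library size only).

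The ZIP importers SLC39A1, SLC39A6 and SLC39A13 were called higher at D3. SLC39A1 (ZIP1) had 89.9, 108 and 202 CPM at D-3 (lowest, median, highest) and 113, 160 and 245 CPM at D3, with a log2 fold change of 0.51 ± 0.11 (SE) and 10 of 12 cows higher. SLC39A13 (ZIP13), which releases zinc from vesicles, had 18.6, 29.5 and 54.4 CPM at D-3 and 24.5, 43.0 and 78.7 CPM at D3 (0.63 ± 0.20). SLC39A6 (ZIP6) had means of 53.1 CPM at D-3 and 67.3 CPM at D3 (0.34 ± 0.11, 11 of 12 cows higher). SLC39A9 (ZIP9) went the other way, from 115 to 76.9 CPM (-0.58 ± 0.15), although its log2 fold change was 0.10 when scaled by library size only.

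At D25 relative to D-3, 5 of the 6 SLC30 members were called lower, of which only SLC30A2 and SLC30A4 kept a value below 0 when scaled by library size only, and SLC30A1 (ZnT1), the exporter of the plasma membrane, was called higher (log2 fold change 0.46). SLC30A1 had means of 15.4 CPM at D-3, 17.1 CPM at D7, 22.5 CPM at D14 and 21.2 CPM at D25, and it entered by D14 vs. D7 (0.39 ± 0.15 SE). SLC39A11 (ZIP11) was level at D3 (53.3 CPM) and had 70.9 CPM at D7, with 12 of 12 cows above their D3 value and a log2 fold change of 0.41 ± 0.13 that was not called. It was called higher at D25 relative to D-3 (0.50). SLC30A1 and SLC39A11 were the 2 members called higher at D25 relative to D-3, against 3.96% of all loci, whereas 26 members were called lower, against 9.16% of all loci. SLC30A1 was higher in 7 of 12 cows and SLC39A11 in 10. Of the 26, SLC8A1 was lower in only 6 of 12 cows. SLC1A4, SLC7A1, SLC25A17, SLC25A23/SLC25A41, SLC25A33, SLC30A5 and SLC35C1 were lower in 7, and the others in 8 to 11. Scaled by library size only, which was tried after the data were seen, 23 members were called higher and 9 lower, 14 of the 26 had a value above 0, and the median of all loci was 0.48.

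**Figure D3:**
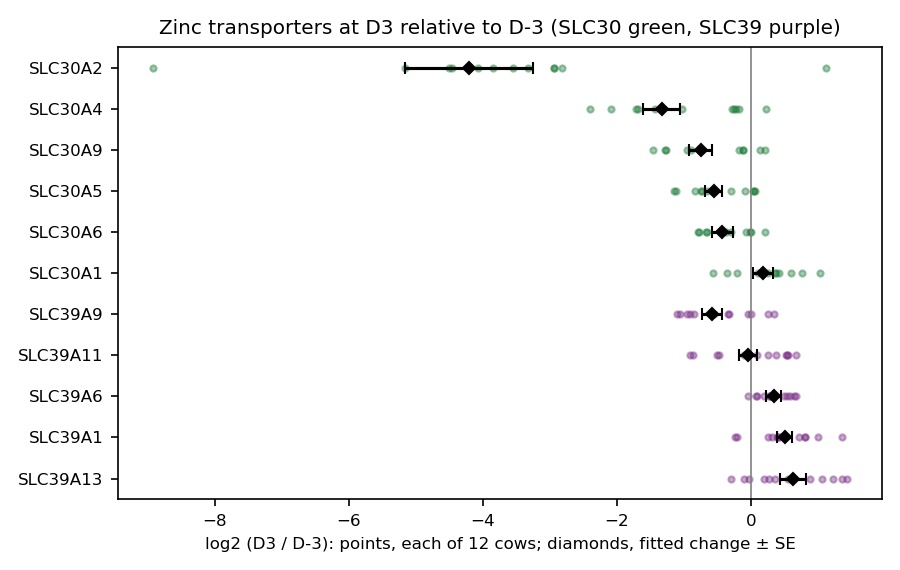
Log2 ratio of D3 to D-3 for 6 SLC30 exporters (green) and 5 SLC39 importers (purple) of zinc, with a point for each of 12 cows and a black diamond for the fitted log2 fold change with its SE. SLC30A2 lies at -4.21 and SLC30A4 at -1.33, while SLC39A13, SLC39A1 and SLC39A6 lie at 0.63, 0.51 and 0.34.

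Carriers of sugars and nucleotide sugars had 6 members. SLC50A1 (SWEET1), a sugar transporter, had 12.4, 23.4 and 75.5 CPM at D-3, 23.8, 55.7 and 116 CPM at D3 and 15.4, 31.0 and 45.8 CPM at D7 (lowest, median, highest). The log2 fold change was 1.27 ± 0.25 (SE) at D3, with 10 of 12 cows higher, and -1.10 ± 0.25 at D7 relative to D3, with 11 of 12 cows lower. Its locus also holds EFNA1, its neighbour in the RefSeq annotation of assembly ARS-UCD2.0, and the reads cannot be divided between these genes. SLC35C1, which carries GDP-fucose into the Golgi, had means of 31.4 CPM at D-3 and 10.1 CPM at D3 (-1.63 ± 0.30, 11 of 12 cows lower). SLC35A2, which supplies the Golgi with UDP-galactose for lactose and glycans, went from 38.7 to 25.0 CPM (-0.62 ± 0.17, and 0.08 when scaled by library size only). SLC33A1, which carries acetyl-CoA into the endoplasmic reticulum, went from 81.7 to 51.2 CPM (-0.67 ± 0.17, and 0.05 when scaled by library size only). SLC35G1 and SLC5A10, a sodium-coupled carrier of mannose and fructose, entered by D7 vs. D3 with -0.40 ± 0.14 and -0.65 ± 0.23, and their means at D3 were 39.8 and 1.16 CPM.

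Among the carriers of monocarboxylates and fatty acids, SLC16A1 (MCT1), which carries lactate, pyruvate and ketone bodies, had 110.0, 469 and 893 CPM at D-3, 48.3, 111 and 566 CPM at D3 and 42.2, 134 and 1030.0 CPM at D7 (lowest, median, highest). It was lower at D3 in 11 of 12 cows, with a log2 fold change of -1.63 ± 0.51 (SE), and its values ranged widely between cows at every later time point. SLC16A11, a relative that carries pyruvate, had 9.72, 14.9 and 52.7 CPM at D-3, 11.1, 29.1 and 80.7 CPM at D3 and 6.23, 23.8 and 44.0 CPM at D7, with log2 fold changes of 1.08 ± 0.30 and -0.78 ± 0.30. SLC27A1 (FATP1), a fatty acid transport protein whose locus also holds PGLS, had 0.42 ± 0.14 at D3 (115 CPM at D-3 and 154 CPM at D3). SLC27A3, of the same family, and SLC16A14 had 0.48 ± 0.16 and 0.51 ± 0.19 at D7 relative to D3, from means at D3 of 6.19 and 3.84 CPM.

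Of 9 carriers of inorganic ions, 6 were called lower and 0 higher at D3 relative to D-3. The rule used this contrast, and the shares over all loci were 9.04% lower and 6.03% higher. SLC41A1, a magnesium transporter, had means of 302 CPM at D-3, 108 CPM at D3 and 72.1 CPM at D25 (log2 fold change at D3 -1.49 ± 0.38 SE). SLC8A1 (NCX1), which exchanges sodium for calcium, had 44.5 and 24.6 CPM at D-3 and D3 (-0.85 ± 0.19). The sodium bicarbonate cotransporters SLC4A5 and SLC4A7 had -1.06 ± 0.32 (2.44 and 1.16 CPM) and -0.62 ± 0.19 (210 and 136 CPM). SLC12A2 (NKCC1), which brings sodium, potassium and chloride into the cell, had 109, 247 and 620 CPM at D-3, 65.3, 144 and 555 CPM at D3 and 225, 477 and 715 CPM at D7 (lowest, median, highest). It was higher at D7 than at D3 in 11 of 12 cows (1.12 ± 0.32) and had a mean of 509 CPM at D25. SLC9B2, a sodium-proton exchanger, had a log2 fold change of 0.70 ± 0.26 at D7 relative to D3 that was not called, from 6.26 CPM at D3 and with 12 of 12 cows above their D3 value. It was called lower at D3 relative to D-3 (-0.81 ± 0.26), but had 0.01 when scaled by library size only. The sulfate and anion carriers SLC26A1 and SLC26A11 had 0.49 ± 0.23 and -0.32 ± 0.15 at D7 relative to D3, from 1.21 and 28.1 CPM at D3.

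The last group held 11 carriers of vitamins, nucleosides, metals, heme and other solutes, with 5 called lower and 2 higher at D3 relative to D-3. The rule used this contrast, and the shares over all loci were 9.04% lower and 6.03% higher. Beside SLC28A1 and SLC31A2, SLC5A6, which takes up biotin and pantothenate, had a log2 fold change of -0.77 ± 0.21 (SE, 45.4 and 26.6 CPM at D-3 and D3). SLC23A1 (SVCT1), a vitamin C transporter, had low values, with means of 1.501, 0.922 and 1.39 CPM at D-3, D3 and D7. It was lower at D3 in 12 of 12 cows (-0.70 ± 0.17) and higher at D7 in 12 of 12 cows (0.58 ± 0.17). SLC10A7, of the bile acid carrier family, had -0.47 ± 0.15 at D3 (37.5 and 27.0 CPM), and 0.13 when scaled by library size only.

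SLC23A3, an orphan of the vitamin C transporter family whose locus also holds CNPPD1, had 50.1, 67.9 and 96.1 CPM at D-3, 46.7, 84.8 and 249 CPM at D3 and 51.4, 67.4 and 77.8 CPM at D7 (lowest, median, highest). Its log2 fold changes were 0.76 ± 0.16 (SE) and -0.86 ± 0.16, and the range between cows was widest at D3. SLC48A1 (HRG1), which carries heme out of lysosomes, had 17.4, 24.8 and 42.3 CPM at D-3, 20.1, 28.4 and 78.8 CPM at D3 and 14.1, 22.0 and 28.6 CPM at D7 (0.57 ± 0.19 and -0.80 ± 0.19). SLC46A3, a lysosomal carrier, had 6.05, 14.3 and 24.2 CPM at D-3, 6.27, 18.3 and 51.5 CPM at D3 and 4.57, 9.96 and 23.2 CPM at D7 (-0.84 ± 0.32 at D7). SLC44A2, a choline transporter-like protein, SLC10A5, whose locus also holds IMPA1 and ZFAND1, and SLC22A17, whose locus also holds EFS, had -0.28 ± 0.12, -0.16 ± 0.08 and 0.53 ± 0.28 at D7 relative to D3. Their means at D3 were 123, 152 and 83.2 CPM.

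At D7 relative to D3, 3 members were called higher (SLC12A2, SLC23A1 and SLC25A35) and 6 lower (SLC3A2, SLC23A3, SLC25A37, SLC25A40, SLC48A1 and SLC50A1), against 0.625% and 2.3% of all loci. With the cow as a replicate block, 15 members and 881 of all 14714 loci were called. Scaled by library size only, 1 member (SLC25A35) and 36 of all loci were called. The counts of members were 1 without cow 8564, 3 without cow 8713, 4 without cow 8314, 8541 or 8647 and 5 without cow 8660. Without cow 8564, 49 of all loci were called. In 63 of the 70 members the sign at D7 relative to D3 was opposite to that at D3 relative to D-3, and since both contrasts use the D3 samples this is a description of the D3 values only. In 4 members a call higher at D3 was followed by a call lower at D7 (SLC23A3, SLC25A37, SLC48A1 and SLC50A1), and in 2 members the order was reversed (SLC23A1 and SLC25A35). Such counts also rest on the shared D3 samples, and their shares over all loci are not given. Some markers of other cell types also had their highest level at D3. The summed level of the 3 paired myoepithelial markers (ACTA2, KRT5 and MYLK) ranged from 440.1 to 2035 CPM at D-3, from 817 to 2922 CPM at D3 and from 725 to 1350 CPM at D7. ACTA2 had log2 fold changes of 0.81 and -1.04 (D3 vs. D-3, then D7 vs. D3) and KRT5 of 1.01 and -1.03, all 4 called, and MYLK of 0.42, not called, and -0.53, called. The muscle gene MYH2 had 2.95 and -4.46, both called, whereas MYH7 was not called, and the sum of both lay between 0.779 and 16.7 CPM at D3. Scaled by library size only, which was run for the markers after the data were seen, ACTA2, KRT5, MYLK and MYH2 kept both signs, and at D7 MYH2 alone of these was called. With TMM scaling, the endothelial markers KDR and EMCN were called lower at D3 relative to D-3 (-0.95 and -0.49). At D7 relative to D3 they had 0.29 and 0.20, neither called. The adipocyte marker ADIPOQ had -0.84 and 1.33 in these contrasts, neither called. The luminal marker KRT19 and the fibroblast gene DCN were called in neither contrast. Scaled by library size only, KDR, EMCN and ADIPOQ had -0.06, -0.0049 and -0.54 at D3, none called. The part of these markers in the D3 values was not tested.

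**Figure D4:**
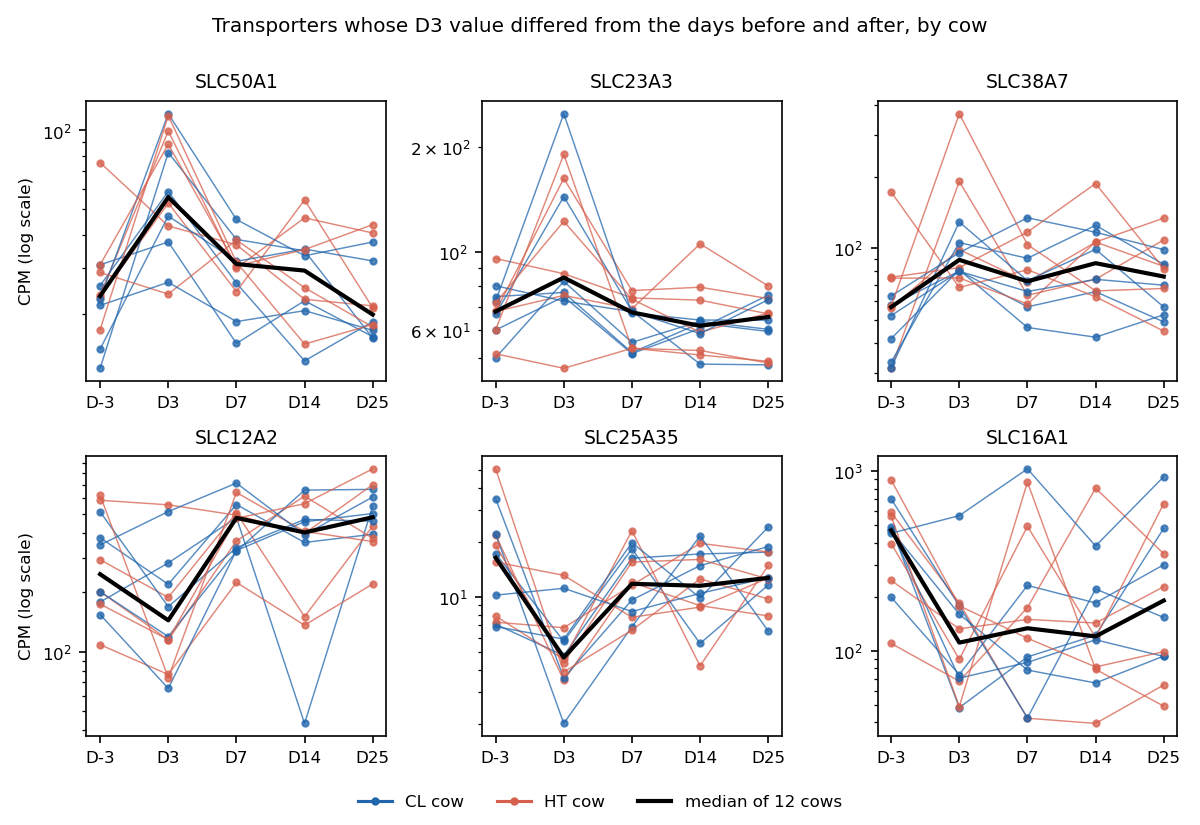
CPM on a log axis of 6 carriers whose D3 median lay above or below both the D-3 and the D7 median. Each of 12 cows is shown (blue CL, red HT), with the median of 12 cows in black. SLC12A2 was not called in D3 vs. D-3, and SLC16A1 and SLC38A7 were not called in D7 vs. D3. The medians of SLC50A1, SLC23A3 and SLC38A7 peak at D3 (55.7, 84.8 and 89.4 CPM), and those of SLC12A2, SLC25A35 and SLC16A1 dip there (144, 4.66 and 111 CPM).

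In D14 vs. D7, 0 of the 70 members and 0% of all loci were called with edgeR, and DESeq2 called 0 members. An unadjusted p below 0.05 was found with edgeR for 1.75% of all loci and for 2 members, SLC30A1 and SLC38A6. These are the members that entered by this contrast, and loci listed for it could not be among the 37 that entered by D3 vs. D-3 only, so the values are a description. The lowest log2 fold changes of the 37 were -1.39 ± 0.89 (SE) for SLC30A2 and -1.24 ± 0.71 for SLC34A2, and neither was called.

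In D25 vs. D14, which the rule did not use, 0 members were called with edgeR and 0 with DESeq2, against 0.0612% of all loci. An unadjusted p below 0.05 was found for 1 member (1.43%), against 3.63% of all loci. That member was SLC25A26, the importer of S-adenosylmethionine, with 22.2, 24.6 and 32.0 CPM at D14 and 26.6, 29.4 and 33.2 CPM at D25 (lowest, median, highest). It was higher at D25 in 10 of 12 cows (log2 fold change 0.20 ± 0.08 SE, FDR of 0.966, two-sided exact sign-flip p = 0.00537 unadjusted), and 0.18 without the D14 library of cow 7965. The ranges of the 2 time points overlapped. The median log2 fold change of the members was 0.02, against 0.01 over all loci. SLC30A1 and SLC38A6 had entered by D14 vs. D7, which shares the D14 samples.

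The next smallest p in D25 vs. D14 were those of SLC38A6, SLC39A13, SLC5A10 and SLC39A1, none of which passed the test. SLC39A13 and SLC39A1 were each lower at D25 in 10 of 12 cows (log2 fold change -0.35 ± 0.20 and -0.19 ± 0.11 SE, exact sign-flip p of 0.0122 and 0.0230, unadjusted). SLC39A13 had 26.0, 38.9 and 87.0 CPM at D14 and 20.9, 33.8 and 48.5 CPM at D25, and SLC39A1 had 104, 145 and 179.9 CPM at D14 and 102, 125 and 150.2 CPM at D25. SLC5A10 had 0.288, 0.725 and 1.03 CPM at D14 and 0.488, 0.955 and 1.496 CPM at D25 (0.41 ± 0.23). SLC38A6 had 12.0, 14.9 and 44.0 CPM at D14 and 10.9, 13.5 and 18.4 CPM at D25, a log2 fold change of -0.29 ± 0.16 with all libraries and -0.07 without the D14 library of cow 7965. Without that library SLC39A13 had -0.21 and SLC39A1 -0.15.

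Between HT and CL cows no member passed an FDR of 0.05 at any time point with edgeR or DESeq2. In no member and at no time point were the ranges of the 2 groups of 6 cows apart. The share of all loci with ranges apart is not given, so nothing is read from the ranges. DESeq2 gave no adjusted p for 2 members at D14. At a less stringent threshold (unadjusted p of 0.005 or less, and a log2 fold change of 0.5 or more either way) 1 member was called at D7 and 0 at the other time points. Of all loci, 0.319% were called at that threshold at D7. The shares were 0.0544% at D-3 and again at D14, 0.0204% at D3 and 0.0408% at D25. DESeq2 also called 1 member at D7 at that threshold. An unadjusted p below 0.05 was found with edgeR for 6 members at D7, 2 at D-3, 1 each at D3 and D14, and 0 at D25. The 6 members at D7 make 8.57% of the members, against 4.57% of all loci.

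The member called at D7 was SLC31A2, the relative of the copper importer. The CL cows had 21.0, 21.8, 27.8, 43.6, 50.0 and 60.1 CPM, and the HT cows 32.8, 49.4, 63.9, 131, 133 and 179.6 CPM. The groups overlapped, and 4 HT cows lay above every CL cow. The log2 fold change was 1.40 ± 0.41 (SE, n = 6 per group, edgeR FDR of 0.959, two-sided exact permutation p = 0.0303 unadjusted). Leaving out 1 cow gave log2 fold changes from 1.14 to 1.58, and SLC31A2 lost its call without cow 7965, 8060, 8513, 8564, 8603, 8647, 8660 or 8713. Scaled by library size only, it was not called either.

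SLC38A3 and SLC1A5, both carriers of glutamine, followed at D7. SLC38A3 had 0.827, 1.57, 1.67, 1.96, 4.60 and 12.9 CPM in CL cows and 2.00, 8.04, 11.1, 13.7, 15.9 and 55.6 CPM in HT cows, a log2 fold change of 2.18 ± 0.78 (SE, FDR of 0.959, exact permutation p = 0.0281 unadjusted). The groups overlapped, and the highest value was that of cow 8513, without which the log2 fold change was 1.37. SLC1A5 had 20.6 to 33.7 CPM in CL cows and 26.9 to 58.6 CPM in HT cows (0.58 ± 0.22, FDR of 0.959, exact permutation p = 0.0433 unadjusted). Neither passed the less stringent threshold with all cows. Without cow 8564, SLC38A3 passed it and SLC31A2 did not.

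The other members with an unadjusted p below 0.05 at D7 were SLC34A2, SLC30A2 and SLC41A1, with HT means above CL means. SLC34A2 had a lowest, median and highest value of 6.38, 24.6 and 65.3 CPM in CL cows and 4.69, 61.8 and 378 CPM in HT cows (log2 fold change 2.03 ± 0.87 SE, and 1.02 without cow 8513). SLC30A2 had 0.326, 0.494 and 4.60 CPM in CL cows and 0.255, 3.02 and 22.5 CPM in HT cows (2.34 ± 1.03, and 1.24 without cow 8513). SLC41A1 had 45.5, 63.1 and 122 CPM in CL cows and 64.7, 124 and 185 CPM in HT cows (0.71 ± 0.30, and 0.56 without cow 8513). The 6 members are all among the 35 of 70 members that were called lower at D3 relative to D-3, against 9.04% of all loci. Since the rule used that contrast, nothing is read from this.

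**Figure D5:**
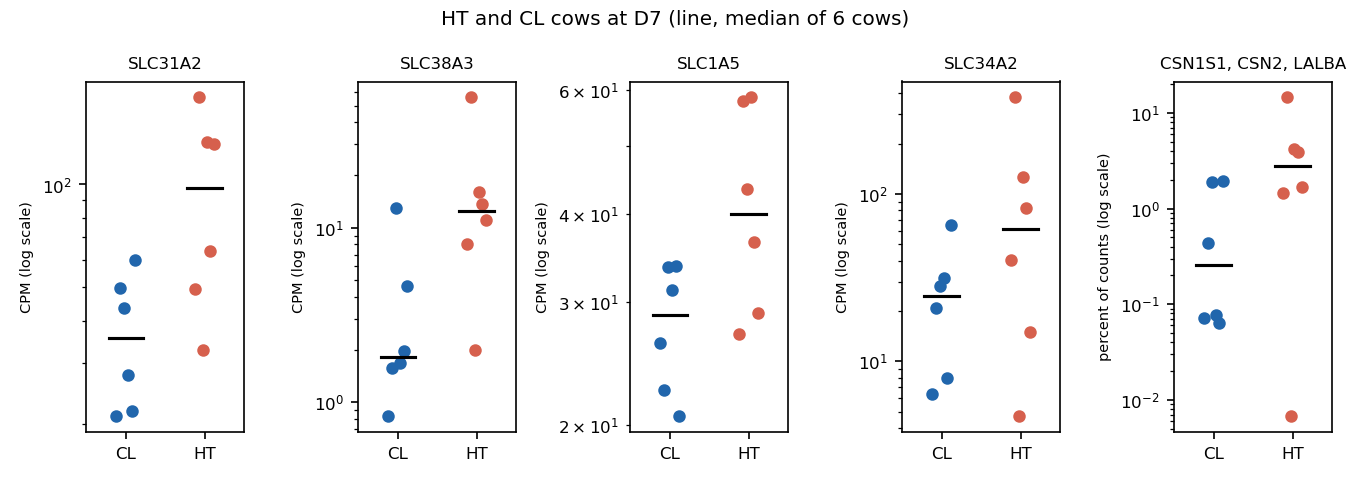
CPM at D7 on log axes of SLC31A2, SLC38A3, SLC1A5 and SLC34A2, and the percent of counts from CSN1S1, CSN2 and LALBA, in 6 CL cows (blue) and 6 HT cows (red), with a line at each median. The HT medians lie above the CL medians in every panel, the groups overlap in every panel, and cow 8513 has the highest milk protein share of 14.5%.

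The milk protein share also had a higher median in HT cows at D7. The 3 secretory markers together held 0.0628% to 1.96% of counts in CL cows (median of 0.259%) and 0.00669% to 14.5% in HT cows (median of 2.80%). Cow 8513 had the highest share, followed by 8660 (4.24%) and 8668 (3.92%), and HT cow 8541 had the lowest share. Among HT cows, 8541 had the lowest SLC31A2, SLC38A3, SLC34A2 and SLC41A1, but not the lowest SLC30A2, and its SLC1A5 of 43.4 CPM was above that of 3 other HT cows. The log2 fold changes of HT relative to CL at D7 were 2.73 ± 1.34 (SE) for CSN1S1, 2.73 ± 1.28 for CSN2 and 3.51 ± 1.81 for LALBA, each with an FDR of 0.959. The luminal marker KRT19 had 0.50 ± 0.23, the myoepithelial marker ACTA2 0.52 ± 0.17 and the muscle gene MYH2 2.18 ± 0.88. The other myoepithelial markers, KRT5 and MYLK, had 0.07 ± 0.28 and 0.28 ± 0.17, and the other muscle gene, MYH7, had 0.13 ± 0.36. None of these markers passed the FDR threshold, and the sum of MYH2 and MYH7 reached 1.78 CPM at most at D7. The part of these markers in the difference between HT and CL was not tested.

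At D-3, before the treatments, SLC39A1 had 89.9, 102 and 109.5 CPM in CL cows and 99.1, 127 and 202 CPM in HT cows (lowest, median, highest). The log2 fold change was 0.45 ± 0.17 (SE, FDR of 1, exact permutation p = 0.0173 unadjusted). SLC38A7 and SLC16A11 had 0.75 ± 0.35 and 0.70 ± 0.36 at D-3, and 0.35 and 0.32 without cow 8513. SLC38A7 had 31.5, 47.0 and 63.1 CPM in CL cows and 31.3, 66.0 and 172 CPM in HT cows, and SLC16A11 had 9.72, 13.3 and 27.8 CPM and 11.8, 21.7 and 52.7 CPM. The treatments had not begun at that time point.

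At D3 SLC28A1 had 0.583, 1.21 and 2.96 CPM in CL cows and 1.33, 2.31 and 22.4 CPM in HT cows (lowest, median, highest), a log2 fold change of 1.79 ± 0.70 (SE, exact permutation p = 0.121). Leaving out 1 cow gave values from 0.65 to 2.06, and the highest HT value was that of cow 8541. SLC38A7 (80.0, 88.5 and 129 CPM in CL cows, 68.5, 90.9 and 368 CPM in HT cows) and SLC25A28 (80.5, 97.0 and 105 CPM, 87.6, 108 and 130.1 CPM) had 0.61 ± 0.38 and 0.19 ± 0.13. All 3 members had an FDR of 1.

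At D14 SLC4A5, a sodium bicarbonate cotransporter, had 1.07, 2.14 and 4.50 CPM in CL cows and 0.727, 1.28 and 1.97 CPM in HT cows. The log2 fold change was -0.86 ± 0.37 (SE, FDR of 0.998, exact permutation p = 0.0563), and -0.97 without the D14 library of cow 7965. SLC28A1 had 0.969, 2.32 and 4.48 CPM in CL cows and 1.45, 3.21 and 15.2 CPM in HT cows (1.09 ± 0.59). SLC7A2 had 27.3, 37.6 and 103 CPM in CL cows and 29.0, 32.2 and 36.6 CPM in HT cows, and its log2 fold change of -0.50 ± 0.28 became -0.11 without that library of cow 7965, which held the highest value.

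At D25 SLC28A1 had 0.813, 2.36 and 5.15 CPM in CL cows and 3.28, 4.27 and 6.26 CPM in HT cows (log2 fold change 0.74 ± 0.41 SE, exact permutation p = 0.0714). SLC1A5 had 16.1, 25.6 and 28.5 CPM and 22.3, 27.0 and 42.0 CPM (0.31 ± 0.18). SLC38A3 had 1.46, 3.64 and 9.66 CPM and 1.88, 9.07 and 13.3 CPM (0.82 ± 0.48). The FDR was 0.997 in all 3.

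For the interaction of treatment with time, 0 members and 0% of all loci were called with edgeR, and 0 members had an unadjusted p below 0.05, against 0.578% of all loci. DESeq2 was not run for it. The smallest p of the members in edgeR's F-test over all 60 samples were 0.241 for SLC23A1, 0.384 for SLC25A28 and 0.406 for SLC34A2. This test covers all time points at once, and the D7 contrast was not set against the other time points alone.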

How the data were processed

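Mammary biopsies of 12 cows at 5 time points (60 libraries) were sequenced. Read counts per assembled locus were deposited by the authors, who, per the submitters' processing notes, used FastQC, Trim Galore 0.4.1, TopHat2 2.0.13, Cufflinks 2.2.1 and HTSeq. The paper and the labels name different genome builds, so no coordinates are given. Totals per sample ranged from 20525083 to 26183990, and the D-3 libraries rich in milk protein leave fewer counts for other loci. Some loci join neighbouring genes (8 of the members), whose reads cannot be divided.

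Loci with at least 1 CPM in 6 or more samples were tested in edgeR 4.0.16 (R 4.3.3, TMM, quasi-likelihood F-test, Benjamini-Hochberg FDR of at most 0.05). Time points were compared in a fit of all 60 samples with no block, HT with CL within the 12 samples of each time point, and the interaction over all 60. Exact two-sided sign-flip (4096 sign changes, smallest p of 0.000488) and permutation tests (924 choices, smallest p of 0.00216) used log2 CPM with a prior count of 2. The cow links the time points by its label, and samples of a cow deviated together (mean correlation of 0.293 over 120 pairs, against -0.0573 over 600 pairs of other cows), so the replicate block was an alternative, beside DESeq2 1.42.0, other scaling, other filters and each cow left out. For D25 vs. D14 and HT vs. CL at D7 only, the steps were run on simulated counts with 200 loci changed 3-fold. The shares recovered were 0.955 and 0.825, and the shares of false calls were 0.0402 and 0.0678. The simulated samples of a cow were not linked, and the other contrasts were not simulated.

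The members and lists were chosen with earlier results of these data known. Every member was named with its level and the contrast by which it entered. Values by sample were given for the 8 highest and 8 lowest log2 fold changes at D3 vs. D-3 and the 5 highest and 5 lowest at D7 vs. D3 among members with a mean of at least 5 CPM, for the 5 smallest p at D25 vs. D14 and for the 3 smallest p of HT vs. CL at each time point. SLC41A1, SLC34A2 and SLC30A2 at D7 were added after their values were seen. A count over the whole SLC family was planned but not run, since no identifier in the reference table matched those of the loci. Columns of the study's own comparisons were used only for which symbols they list.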

Additional observations from a re-analysis of the deposited data

Results flagged for a closer look

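Among 30 groups of 6 cows examined on the log2 CPM scale, 1 value stood apart by Dixon's criterion, which by chance alone picks about 1 in 20 groups. It was SLC7A2, a carrier of cationic amino acids, at D14 in CL cow 7965, with 103 CPM. The other CL cows at D14 had 40.3 CPM or less, and the gap to the nearest value was 0.706 of the range of the group, above the critical value of 0.625. The library is the one with 3.36 CPM of KRT19, and the part of its tissue make-up in this value was not tested.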

How the results depend on the processing

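The count of members called in D3 vs. D-3 was 47, 26 when scaled by library size only, 25 in the fit of the 24 samples, and 34 (without cow 8713) to 49 with a cow left out. Over all 14714 loci, 2391 were called with that scaling and 845 in that fit. With a cow left out, 1230 (without cow 8713) to 2557 (without cow 8686) were called. Scaled by library size only, the log2 fold change was 0.05 for SLC33A1, 0.10 for SLC39A9, 0.13 for SLC10A7, 0.05 for SLC38A10, 0.04 for SLC30A5, 0.17 for SLC25A26, 0.06 for SLC38A2, 0.08 for SLC25A17, 0.01 for SLC9B2 and 0.08 for SLC35A2. That scaling leaves the median of all loci at 0.35. For D25 vs. D-3, with alternatives chosen after seeing the data, the count was 28, 30 with RLE factors, 31 with the cow as a replicate block and 32 when scaled by library size only. The last gave 0.18 for SLC33A1 and SLC30A9, 0.29 for SLC39A9, 0.31 for SLC30A6 and SLC30A5, 0.12 for SLC8A1, 0.07 for SLC7A1, 0.09 for SLC25A15, 0.28 for SLC25A33, 0.20 for SLC10A7 and SLC38A2, 0.33 for SLC25A17, 0.13 for SLC25A23/SLC25A41 and 0.17 for SLC35A2, around a median of all loci of 0.48. In D7 vs. D3 the count was 9, 1 when scaled by library size only, 15 with the cow as a replicate block, 17 with that block and the labels of cows 8513 and 8660 exchanged at D14 and D25, and 1 to 10 with a cow left out. Over all loci, 36 were called with library size only, 881 with the block and 1022 with the exchanged labels. With a cow left out, 49 (without cow 8564) to 609 (without cow 8668) were called. In HT vs. CL at D7 the count of members was 1, 0 when scaled by library size only, 0 by FDR, and 0 to 1 with a cow left out. The causes were not tested. The counts in D14 vs. D7, D25 vs. D14, HT vs. CL at the other time points and the interaction were 0 under every alternative run, and the replicate block moved no count but that of D7 vs. D3 by over 1.5 times. The alternatives for the whole SLC family were not run. Members under 1 CPM, such as SLC6A15 and SLC38A11 at D3, rest on few reads.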
